A study of Mus musculus with 4 samples.

Results

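The nuclear-encoded genes of the mitochondrial respiratory chain and ATP synthase were compared between cultured keratinocytes of Casp8 F/- K5-Cre and F/+ K5-Cre mice. Members were all gene probes whose name on the array begins with Nduf, Uqcr or Atp5, is Sdha, Sdhb, Sdhc, Sdhd, Cyc1 or Cycs, or is Cox followed by a digit for subunits 4 to 8 and a suffix. This rule took 84 of 27962 gene names, with 117 of 41174 gene probes, and no measured value entered it. A filter on dim signal, which asked for a spot well above background in either channel on 2 or more arrays, kept 112 of these 117 probes and 83 of the 84 genes (Cox8c was left without a probe). A gene with several probes was read from the brightest one. By complex, the 83 genes comprised 35 of complex I, 4 of complex II, 9 of complex III with cytochrome c, 11 widely expressed subunits of complex IV and 15 of complex V. A further 5 encode subunit isoforms restricted to certain tissues, and 4 matched the rule by name without being subunits of a complex. The newer symbols in RefSeq for Atp5f1, Atp5s, Cox4nb and Uqcr are Atp5pb, Dmac2l, Emc8 and Uqcr11. Newer names put 9 genes of the chain or its assembly, such as Ndufv3 and Uqcr10, outside the rule, and subunits encoded in mitochondrial DNA were not analysed here.

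In F/- cultures the floxed allele of Casp8, the gene of caspase-8, stood opposite a null allele, and in F/+ cultures it stood opposite a wild-type allele. K5-Cre was present in both, so the floxed allele can be recombined only in cells that use the keratin 5 promoter, as basal keratinocytes do. Caspase-8 is a protease that is activated by death receptors. Epidermal keratinocytes came from 2 mice of each genotype, labelled with the age P3, and RNA was taken at passage 3 and at passage 1 of the culture. The 8 RNA samples lay on 4 arrays with a Cy3 and a Cy5 channel. On each array the F/- mouse of a pair was labelled with Cy3 and its F/+ partner with Cy5. No array had the dyes exchanged, so dye and genotype cannot be told apart. Unless called levels or changes with passage, values are log2 ratios with F/- as numerator and F/+ as denominator. Arrays of 1 pair at both passages come from the same animals, and p-values over 4 arrays treat them as independent.

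Oxidative phosphorylation runs on complexes of the inner mitochondrial membrane. Complexes I and II take electrons from NADH and succinate, ubiquinone carries them to complex III, cytochrome c carries them on to complex IV, which reduces oxygen, and complex V makes ATP from the proton gradient. Complex II is the only complex built wholly from nuclear genes and is also an enzyme of the tricarboxylic acid cycle. Cytochrome c, once released into the cytosol, also starts caspase activation in the mitochondrial pathway of cell death. Many promoters of the chain's nuclear genes bind NRF1 and ETS family factors.

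Respiratory chain probes were bright. Mean log2 intensities of the 83 genes lay between 6.31 and 16.99 with a median of 14.04, against a median of 7.68 over all 35574 probes kept, and 65 of the 83 genes were in the brightest decile of probes. Both channels were well above background on all 4 arrays for 82 of the 83 genes, the exception being Cox8b. Over all gene spots, between 75.8% and 85.4% were well above background in the F/- channel and between 80.6% and 87.9% in the F/+ channel, and 0 were saturated. The arrays shared 1 slide and 1 scan. The Casp8 probe read 0.47 and -0.20 at passage 3 and 0.42 and 0.18 at passage 1. Where it lies relative to the deleted part is unknown here, and it does not check the genotype. Of the 8 listed keratinocyte markers, 7 were measured, and their summed log2 level lay between 18.51 and 18.84 in F/- cultures and between 19.08 and 19.27 in F/+ cultures. Keratin genes Krt14 and Krt5 were lower in F/- cultures, at -0.66 ± 0.25 and -0.60 ± 0.29, as was the desmosome gene Perp at -0.55 ± 0.20 (SD, n = 4, limma adjusted p between 0.0262 and 0.0318). Of the other 4 markers, which did not pass, Krt10 had a mean of -0.57, Dsp of -0.14, Trp63 of 0.044 and Itga6 of 0.29. In these mixed RNAs, fewer cells of a type and less RNA per cell cannot be told apart.

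The passage 3 array of pair 1 stood apart for these genes. Of the 82 genes with a value on every array, 61 had their lowest ratio there, and 15 were past 2-fold lower there, against 0 on the passage 3 array of pair 2, 0 on the passage 1 array of pair 1 and 1 on the passage 1 array of pair 2. On that array the median ratio of 7 fibroblast markers was 1.22, against 0.31 on the passage 3 array of pair 2, 0.24 on the passage 1 array of pair 1 and 0.0052 on that of pair 2. The summed log2 level of these markers was 12.27 and 11.78 in F/- cultures of pairs 1 and 2 at passage 3, against 10.60 and 11.31 in F/+ cultures. All 7 fibroblast markers, Col1a1, Col1a2, Col3a1, Dcn, Lum, Pdgfra and Pdgfrb, were well above background in both channels on all 4 arrays. Summed log2 levels of 7 leukocyte markers were 12.03 and 11.73 in F/- cultures at passage 3, against 11.11 and 11.12 in F/+ cultures. At passage 1 they were 13.84 and 13.11 in F/- cultures, against 13.05 and 13.37 in F/+ cultures. The part of other cell types in the ratios below was not tested.

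Taken over both passages, respiratory chain genes had ratios below 0 in F/- cultures in 4 of the 5 complexes, and complex II was the exception under loess (its median was -0.069 under median centring of the arrays). The mean ratio was below 0 for 74 of 83 genes, with a median of -0.30, against a median of -0.011 over all probes, of which 53.3% were below 0. Ratios were below 0 on all 4 arrays for 54 of 82 genes (19.9% of all probes) and above 0 on all 4 for 4 of 82 (19% of all probes). In the test of the mean over 4 arrays with limma and Benjamini-Hochberg adjustment over all probes, 15 of 83 genes were lower in F/- cultures (2.99% of all probes) and 2 were higher (5.85% of all probes). Among these 15, Atp5b read the opposite way by its dimmer probes. At an unadjusted p under 0.05, 52 were lower (13% of all probes) and 4 higher (16.4% of all probes). Among the brightest decile of probes, 7.08% were called lower and 8.26% higher, 50.2% had a mean below 0, 23.8% were below 0 on all 4 arrays and 24.1% above 0 on all 4. Median ratios of all 83 genes were -0.58 and -0.17 on the passage 3 arrays of pairs 1 and 2 and -0.24 and -0.23 on the passage 1 arrays, so the median was below 0 on each array. By complex, the median of the mean ratio was -0.34 for complex I, 0.22 for complex II, -0.31 for complex III with cytochrome c, -0.53 for complex IV and -0.40 for complex V. Without the passage 3 array of pair 1 these medians were -0.21, 0.27, -0.22, -0.33 and -0.30. When the array of either pair at passage 1, or that of pair 1 at passage 3, was left out, 0 genes passed in either direction, and 0 of all probes did. At an unadjusted p under 0.05, between 25 and 37 genes were then lower and between 3 and 4 were higher. Without the passage 3 array of pair 2, 39 of 82 genes were called lower and 2 higher, against 4.69% and 6.47% of all probes and 13.1% and 8.6% of the brightest decile. With the 2 arrays of each pair averaged first, 0 of 83 and 0 of all probes passed (smallest member adjusted p 0.0513), while 52 were lower and 3 higher at an unadjusted p under 0.05.

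**Figure D1:**
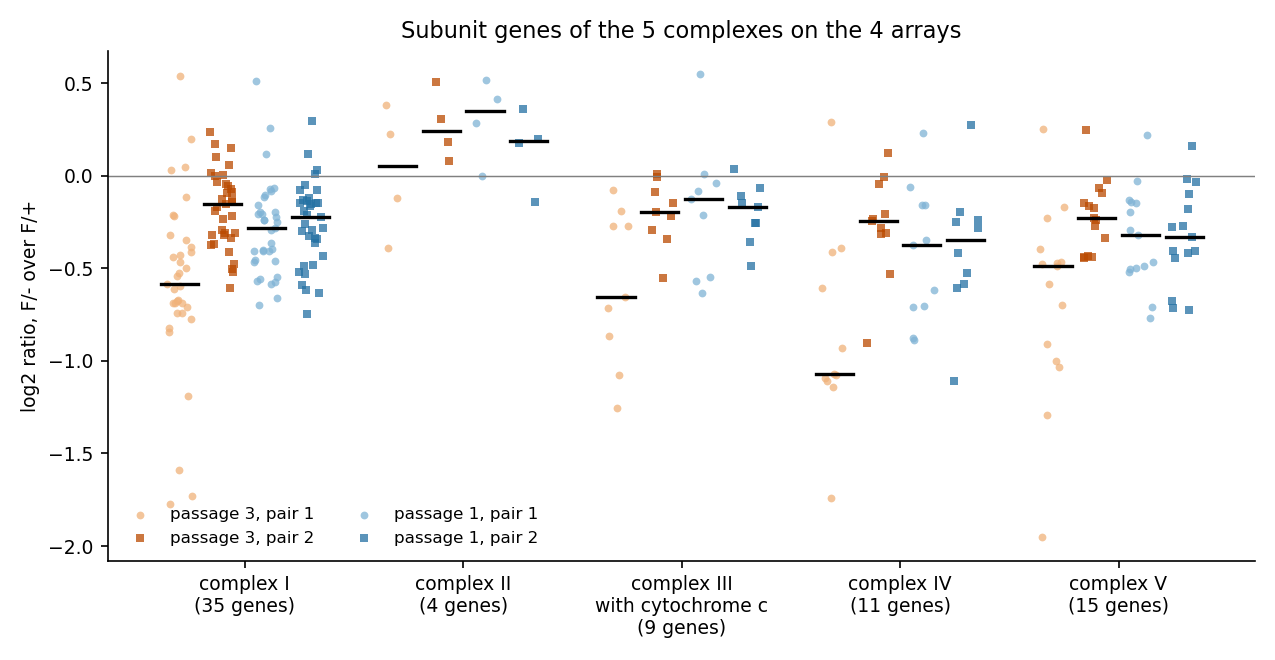
Log2 ratio of F/- over F/+ (vertical axis) of the subunit genes of each complex, with 1 point per gene and 1 column of points per array, and the median as a black bar. Medians of complexes I, III with cytochrome c, IV and V lie below 0 on all 4 arrays and lowest on the passage 3 array of pair 1, where the complex IV median is -1.07, while those of complex II lie between 0.052 and 0.35 under loess and its median of the mean is -0.069 under median centring.

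Promoter windows were searched for the letters bound by NRF1 and by ETS factors, since these factors bind many genes of the chain. The NRF1 motif was GCGCA, any 1 base and GCGC, and the ETS motif was CCGGAAG, each on both strands with no overlap between them in the windows shown, in RefSeq windows of build GRCm38.p6 that hold 250 bases before and 50 bases after each start. Of the 84 genes, 68 had a window, and of these 17 (25%) held, in at least 1 window, the NRF1 motif and 17 (25%) the ETS motif. Over 27025 genes the shares were 5.19% and 9.93%. By complex, the NRF1 motif was in a window of 7 of 31 genes of complex I, 2 of 3 of complex II, 1 of 5 of complex III with cytochrome c, 1 of 9 of complex IV and 6 of 14 of complex V. The 250 bases before the start are shown for Cox6a1, the gene with the most negative mean among those called, and for Sdha, which was called higher, because both hold the NRF1 motif and their ratios lie on opposite sides of 0. Cox6a1 lies at chr5:115348959-115349208 and Sdha at chr13:74350241-74350490, both on the minus strand, and capitals mark the motifs. Cox6a1 holds 2 NRF1 motifs and 1 ETS motif, read here as CTTCCGG, and Sdha holds 3 NRF1 motifs.
Cox6a1: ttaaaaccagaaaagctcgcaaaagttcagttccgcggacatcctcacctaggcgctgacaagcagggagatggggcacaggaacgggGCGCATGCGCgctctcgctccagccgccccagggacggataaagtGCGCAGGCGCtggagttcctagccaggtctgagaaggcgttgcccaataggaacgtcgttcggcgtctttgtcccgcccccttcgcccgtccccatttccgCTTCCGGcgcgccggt
Sdha: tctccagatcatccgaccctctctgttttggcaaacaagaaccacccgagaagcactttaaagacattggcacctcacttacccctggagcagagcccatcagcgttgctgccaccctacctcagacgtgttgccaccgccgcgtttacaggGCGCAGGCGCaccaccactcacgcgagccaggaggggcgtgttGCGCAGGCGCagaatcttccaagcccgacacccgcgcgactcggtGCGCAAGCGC

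In complex I, 7 of 35 genes were called lower in F/- cultures (2.99% of all probes, 7.08% of the brightest decile). Ndufb3, an accessory subunit of the membrane arm, had ratios of -0.82 and -0.60 on the passage 3 arrays of pairs 1 and 2 and -0.57 and -0.63 on the passage 1 arrays. These 4 values lay close together, at -0.66 ± 0.11 (SD, n = 4 arrays, limma adjusted p = 0.0257). Ndufb10, also of the membrane arm, read -0.71 and -0.37 at passage 3 and -0.70 and -0.34 at passage 1, with a mean of -0.53 ± 0.20 (limma adjusted p = 0.0422). Pair 1 was the lower of the pairs at each passage for Ndufb10. The others called lower were Ndufa5, an accessory subunit of the matrix arm, at -0.51 ± 0.15, Ndufa9, which sits near the ubiquinone site, at -0.50 ± 0.21, Ndufb11 at -0.43 ± 0.13, Ndufs5 at -0.36 ± 0.15 and Ndufa12 at -0.34 ± 0.087, with limma adjusted p between 0.0298 and 0.0444.

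The arms of complex I, which hold the electron path in the matrix and the proton path in the membrane, had similar medians of the mean ratio. In the membrane arm 19 of 19 genes had a mean ratio below 0, with a median of -0.34, and 4 were called lower. In the matrix arm 14 of 16 were below 0, with a median of -0.32, and 3 were called lower. Of all probes 2.99% were called lower, and of the brightest decile 7.08%. On each array the membrane arm had the lower median, at -0.67 and -0.22 at passage 3 and -0.40 and -0.26 at passage 1. Medians of the matrix arm were -0.50 and -0.15 at passage 3 and -0.23 and -0.21 at passage 1. The difference between the arms was not tested. The genes with the most negative means in complex I did not pass the test. Ndufa11, an accessory subunit of the membrane arm, read -1.77 and -0.32 at passage 3 and -0.66 and -0.59 at passage 1, with a mean of -0.84 ± 0.64 (limma adjusted p = 0.0986), and its second probe gave -0.83 ± 0.67. Ndufc1 read -1.73 and -0.52 at passage 3 and -0.47 and -0.53 at passage 1, and Ndufa1 -1.59 and -0.48 at passage 3 and -0.57 and -0.62 at passage 1. In all 3 genes the passage 3 array of pair 1 lay more than 0.9 below the other arrays, which lay close to each other. Ndufv1, the flavin-binding subunit that takes electrons from NADH, read -0.12 and 0.15 at passage 3 and 0.26 and 0.010 at passage 1. Ndufs1, which carries several iron-sulfur clusters, had a mean of -0.038 ± 0.065 (SD, n = 4), the value nearest to 0 in complex I.

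In complex II, 3 of 4 genes had a mean ratio above 0 under loess and 1 was called higher (5.85% of all probes). Sdha, the flavoprotein that oxidises succinate, had ratios of 0.38 and 0.31 at passage 3 and 0.52 and 0.36 at passage 1. It was above 0 on all 4 arrays, with a mean of 0.39 ± 0.089 (SD, n = 4, limma adjusted p = 0.0323). Its dimmer second probe read 0.15 ± 0.13 and did not pass (limma adjusted p = 0.219). Sdhc, a membrane anchor that holds part of the haem and ubiquinone site, read 0.23 and 0.50 at passage 3 and 0.41 and 0.18 at passage 1, with a mean of 0.33 ± 0.15 (limma adjusted p = 0.0671). Sdhb, the iron-sulfur subunit, read -0.12 and 0.081 at passage 3 and 0.28 and 0.20 at passage 1. Sdhd, the other anchor, read -0.39 and 0.18 at passage 3 and -0.0039 and -0.14 at passage 1, so its sign varied between arrays. With median centring in place of loess, the complex II median was -0.069 and that of complex I was -0.79, so the sign of complex II relative to 0 depended on the normalization.

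In complex III with cytochrome c, 9 of 9 genes had a mean ratio below 0 by the brightest probe. Dimmer probes of Uqcrc1 and Uqcrq read 0.099 and 0.093, against -0.14 and -0.58 by the brightest. With limma 0 of the 9 passed (2.99% of all probes were called lower), while 6 were lower at an unadjusted p under 0.05 (13% of all probes). Uqcrfs1, the Rieske iron-sulfur protein, read -1.08 and -0.19 at passage 3 and -0.55 and -0.36 at passage 1, with a mean of -0.54 ± 0.38 (limma adjusted p = 0.0962). Uqcrh, the hinge protein, read -0.19 and -0.55 at passage 3 and -0.63 and -0.25 at passage 1 (limma adjusted p = 0.0705), and in this gene pair 1 was the higher at passage 3 and the lower at passage 1. Uqcrq, a small subunit next to cytochrome b, read -1.26 and -0.0079 at passage 3 and -0.57 and -0.49 at passage 1. Cyc1, which encodes cytochrome c1, read -0.71 and -0.089 at passage 3 and 0.55 and -0.17 at passage 1, the widest spread at passage 1 in this complex. Cycs, which encodes somatic cytochrome c, read -0.077 and 0.0090 at passage 3 and 0.0091 and 0.038 at passage 1 by its brightest probe. Its mean was -0.0053 ± 0.050 (SD, n = 4), while its other probes, which were dimmer, read -0.31 ± 0.16 and -0.33 ± 0.19, with limma adjusted p of 0.0787 and 0.0754.

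In complex IV, 10 of 11 widely expressed subunit genes had a mean ratio below 0. Of the 11, 3 were called lower (2.99% of all probes, 7.08% of the brightest decile). Cox6a1, an accessory subunit, was the brightest gene of the chain. It read -1.14 and -0.31 at passage 3 and -0.89 and -1.11 at passage 1, with a mean of -0.86 ± 0.38 (SD, n = 4, limma adjusted p = 0.0396). The passage 3 array of pair 2 was the highest for Cox6a1. Cox7b read -1.11 and -0.90 at passage 3 and -0.62 and -0.53 at passage 1, with a mean of -0.79 ± 0.27 (limma adjusted p = 0.0257). Cox7c read -1.08 and -0.53 at passage 3 and -0.87 and -0.58 at passage 1, with a mean of -0.77 ± 0.26 (limma adjusted p = 0.0315). Cox7b and Cox7c encode small single-helix accessory subunits, and both had all 4 arrays below -0.5. Cox6b1 read -1.74 and -0.23 at passage 3 and -0.35 and -0.60 at passage 1 and did not pass (limma adjusted p = 0.14). Cox6c had no value on the passage 1 array of pair 2, and its other 3 arrays gave -0.69 ± 0.38. Cox4i1, the largest nuclear-encoded subunit, was the gene with a mean above 0, at 0.29 and -0.28 at passage 3 and 0.23 and 0.27 at passage 1.

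In complex V, 14 of 15 genes had a mean ratio below 0 by the brightest probe. A dimmer probe of Atp5a1 read 0.10, against -0.23 by its brightest. Of the 15 genes, 4 were called lower (2.99% of all probes, 7.08% of the brightest decile). In the F1 head and central stalk 3 of 5 genes passed, namely Atp5b, Atp5c1 and Atp5e. Atp5b encodes the catalytic beta subunit, and its brightest probe read -0.47 and -0.44 at passage 3 and -0.51 and -0.41 at passage 1. These 4 values gave the smallest spread among the genes called, at -0.46 ± 0.042 (SD, n = 4, limma adjusted p = 0.0262), but the other probes of Atp5b read the opposite way, as described below. Atp5c1, the gamma subunit of the rotating stalk, had a mean of -0.46 ± 0.18 (limma adjusted p = 0.0455) and Atp5e, the epsilon subunit, of -0.40 ± 0.093 (limma adjusted p = 0.0343). In the peripheral stalk, 1 of 4 genes passed, which was Atp5o at -0.30 ± 0.14 (limma adjusted p = 0.0464). It encodes the oligomycin sensitivity conferral protein. In the membrane part, none of 3 c ring genes and none of 3 small subunit genes passed, although Atp5k had the most negative mean of all members, at -0.90 ± 0.71 (limma adjusted p = 0.0939). Its ratios were -1.95 and -0.44 at passage 3 and -0.49 and -0.72 at passage 1. The c ring gene Atp5g3 read -1.002 and -0.16 at passage 3 and -0.77 and -0.73 at passage 1, and Atp5j of the peripheral stalk read -1.29 and -0.24 at passage 3 and -0.52 and -0.45 at passage 1.

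**Figure D2:**
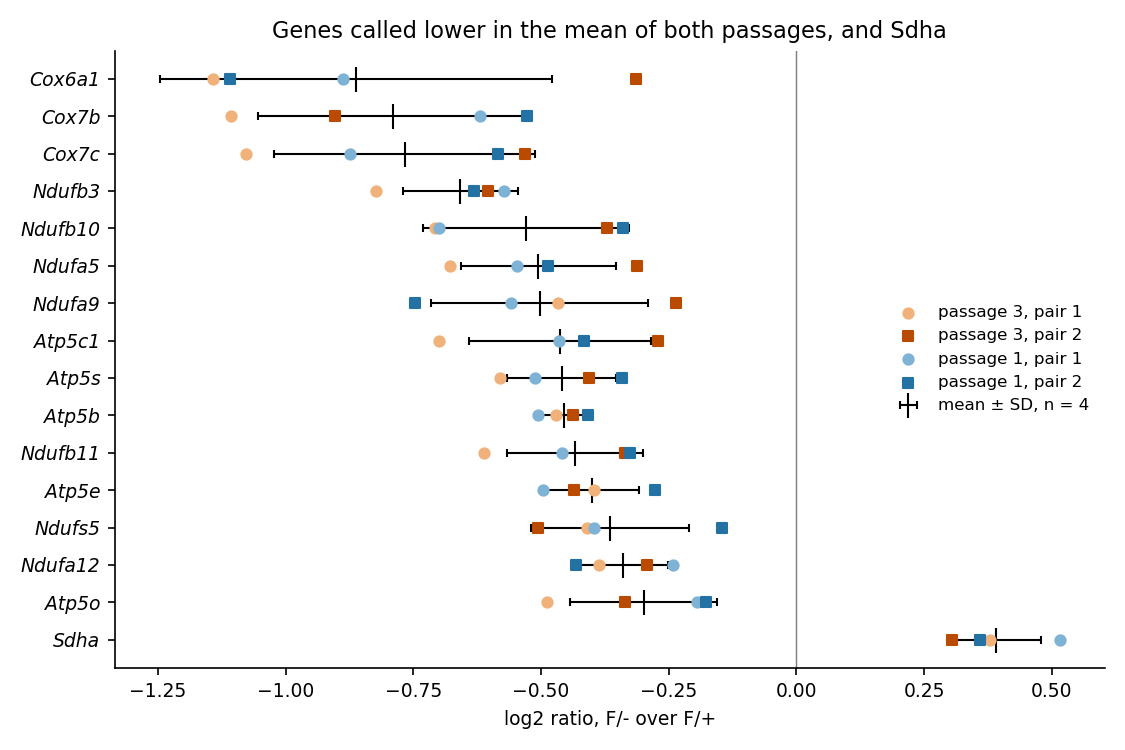
Log2 ratio of F/- over F/+ (horizontal axis) of the 15 genes called lower in the mean of both passages (limma adjusted p under 0.05) and of Sdha, called higher, with 1 point per array and the mean ± SD over 4 arrays. Each gene is drawn from its brightest probe. The 15 lower genes lie below 0 and Sdha above 0 on all 4 arrays, and Cox6a1 has the widest spread, between -1.14 and -0.31. The other probes of Atp5b, not drawn here, lie above 0 on all 4 arrays.

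The genes outside the complexes and the restricted isoforms behaved less uniformly. Atp5s, which encodes a factor named after ATP synthase that is not a subunit of it, was lower at -0.46 ± 0.11 (SD, n = 4, limma adjusted p = 0.0299). Cox7a2l, a factor of supercomplex assembly, read 0.092 and 0.31 at passage 3 and 0.13 and 0.57 at passage 1 and did not pass. Cox4nb encodes a subunit of a membrane complex of the endoplasmic reticulum and had a mean of -0.14 ± 0.34. Of the isoforms, Cox6a2 and Cox7a1 are those of heart and skeletal muscle, Cox8b is also a muscle isoform in mice, Cox4i2 is a lung isoform and Cox6b2 a testis isoform. None of the 5 passed in the genotype comparison, and Cox6b2 came nearest with -0.72 and -0.37 at passage 3 and -0.12 and -0.26 at passage 1 (limma adjusted p = 0.0567).

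Probes of 1 gene disagreed in part. Of 23 genes with more than 1 kept probe, 6 had probes with mean ratios of opposite sign, 3 had probes more than 0.5 apart, and the median spread was 0.19. The brightest Atp5b probe, at a mean log2 intensity of 16.35, gave -0.46 ± 0.042. A second Atp5b probe at 15.11 read 0.70 and 0.25 at passage 3 and 0.71 and 0.39 at passage 1, or 0.51 ± 0.23, and the third at 12.62 gave 0.57 ± 0.20, which passed the test as higher (limma adjusted p = 0.0343). The direction of Atp5b is therefore undecided by these probes. The brightest Uqcrq probe gave -0.58 ± 0.51 and a dim one 0.093 ± 0.42, and for Ndufa3 the brightest gave -0.63 ± 0.41 and a dim one -0.12 ± 0.22. Counted over probes instead of genes, 17 of 112 were called lower and 3 higher (2.99% and 5.85% of all probes). In the brightest decile the shares were 7.08% and 8.26%. The place of each probe on its transcript is not given in the sources used here.

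**Figure D3:**
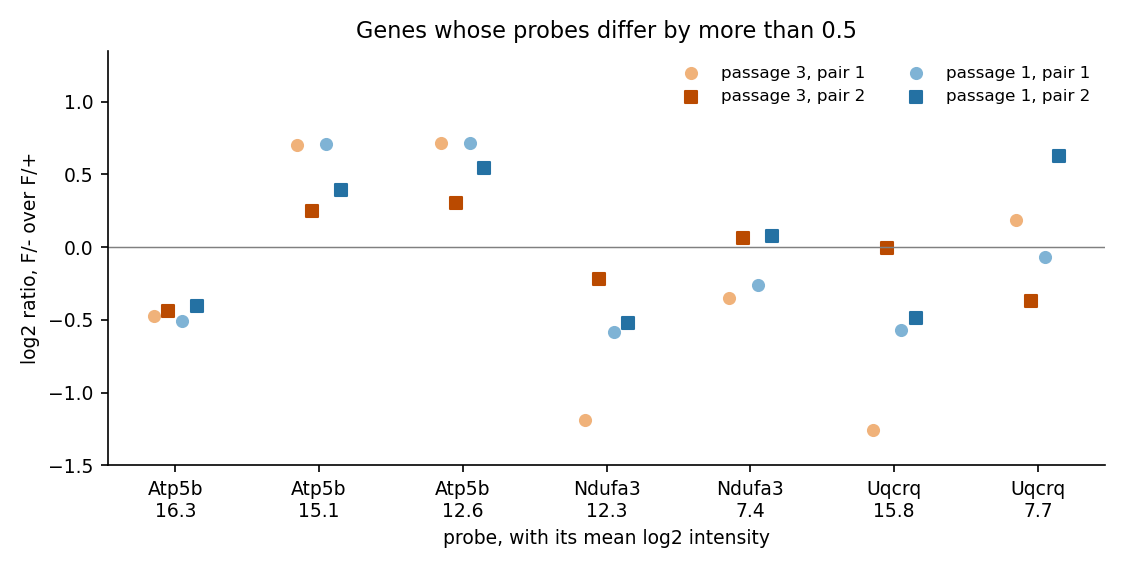
Log2 ratio of F/- over F/+ (vertical axis) on each array for all kept probes of the 3 genes whose probes differ by more than 0.5, with the mean log2 intensity of the probe under its name. The brightest Atp5b probe lies below 0 and its other probes above 0 on all 4 arrays.

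At passage 3 alone, the genotype ratio was below 0 for 73 of 83 genes (53.1% of all probes), with a median of -0.36. With limma, 0 genes passed (0% of all probes, smallest adjusted p among members 0.079), while 45 were lower (8.49% of all probes) and 3 higher (11.5% of all probes) at an unadjusted p under 0.05. Medians were -0.35 for complex I, 0.16 for complex II, -0.40 for complex III with cytochrome c, -0.67 for complex IV and -0.42 for complex V. With only pair 2 left at passage 3, the median over all genes was -0.16, against -0.36 with both pairs. Cox7b had the smallest unadjusted p, at a mean ratio of -1.01 ± 0.14 (SD, n = 2, limma adjusted p = 0.079). Means past -1 were also those of Atp5k at -1.20 ± 1.07, Ndufc1 at -1.12 ± 0.86, Ndufa11 at -1.05 ± 1.03 and Ndufa1 at -1.03 ± 0.78, each lowest on the array of pair 1.

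At passage 1 alone, the ratio was below 0 for 69 of 83 genes (51.4% of all probes), with a median of -0.22. With limma, 0 genes passed (0% of all probes, smallest adjusted p among members 0.0795), while 19 were lower (8.42% of all probes) and 5 higher (12.2% of all probes) at an unadjusted p under 0.05. Cox6a1 had the most negative mean, at -0.998 ± 0.16 (SD, n = 2), followed by Atp5g3 at -0.75 ± 0.030, Cox7c at -0.73 ± 0.21, Cox6c at -0.70 on 1 array, Atp5j2 at -0.69 ± 0.025 and Ndufa9 at -0.65 ± 0.13. In the complexes, means above 0 included those of Sdha at 0.44 ± 0.11, Sdhc at 0.30 ± 0.17, Cox4i1 at 0.25 ± 0.029 and Sdhb at 0.24 ± 0.062.

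The genotype ratio was not shown to differ between passages for any member. With limma, 0 of 83 genes passed in the difference of passage 3 minus passage 1 (0% of all probes, smallest adjusted p among members 0.825), and 1 gene had an unadjusted p under 0.05, which was Cox7b with a difference of -0.43. At that threshold 3.34% of all probes were lower and 2.49% higher. The difference was below 0 for 61 of 83 genes (50.8% of all probes). The median difference was -0.10 over all members with all arrays and 0.076 without the passage 3 array of pair 1. Both passage 3 ratios lay below both passage 1 ratios for 16 of 82 genes (18.2% of all probes) and above them for 4 of 82 (16.8% of all probes), shares near or below those of all probes. Among the genes that did so were Atp5l, the g subunit of ATP synthase, at -1.03 and -0.44 at passage 3 against -0.29 and -0.034 at passage 1, and Uqcrb at -0.65 and -0.29 against -0.21 and -0.064.

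Within each genotype, the levels of respiratory chain genes at passage 3 were compared with those at passage 1 in a separate-channel fit. The median change was -0.35 in F/- cultures and -0.25 in F/+ cultures over 82 genes, against 0.011 and 0.020 over all probes. It was below 0 for 65 of 82 genes in F/- cultures (48.8% of all probes) and for 61 of 82 in F/+ cultures (47.8% of all probes). With limma and adjustment over all probes, 1 of 82 genes was lower in F/- cultures (2.2% of all probes) and 0 were higher (2.88% of all probes), while at an unadjusted p under 0.05 20 were lower (9.51% of all probes) and 2 higher (11.1% of all probes). In F/+ cultures 1 was lower (2.42% of all probes) and 1 higher (3.23% of all probes), while at an unadjusted p under 0.05 5 were lower (9.37% of all probes) and 2 higher (11.6% of all probes). The adjusted counts are at or below the shares of all probes. Both passage 3 levels lay below both passage 1 levels for 51 of 82 genes in F/- cultures (27.5% of all probes) and for 32 of 82 in F/+ cultures (24.7% of all probes). They lay above them for 7 of 82 in F/- cultures (29.2% of all probes) and for 6 of 82 in F/+ cultures (27.2% of all probes). F/- and F/+ levels share arrays, so array effects enter both comparisons.

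Read from the brightest probe, the genes that passed were muscle isoforms near the dim end. Counted over probes, 2 of 111 were called lower and 0 higher in F/- cultures (2.2% and 2.88% of all probes). In F/+ cultures 1 was called lower and 1 higher (2.42% and 3.23% of all probes). Cox6a2 had log2 levels of 7.13 and 7.05 at passage 3 against 8.26 and 8.38 at passage 1 in F/- cultures, a change of -1.23 (limma adjusted p = 0.0258). In F/+ cultures its levels were 7.02 and 7.09 at passage 3 against 8.04 and 8.57 at passage 1, a change of -1.25 (limma adjusted p = 0.0222). Cox6a2 thus fell with passage in both genotypes, with no overlap between the passages. Cox7a1 had log2 levels of 8.92 and 9.32 at passage 3 against 8.34 and 8.30 at passage 1 in F/- cultures, a change of 0.80 (limma adjusted p = 0.133). In F/+ cultures it stood at 9.67 and 9.68 at passage 3 against 8.68 and 8.24 at passage 1, a rise of 1.21 (limma adjusted p = 0.0398). Of 7 skeletal muscle markers, 1 passed in each genotype, Acta1, which rose with passage by 2.62 in F/- cultures and by 2.42 in F/+ cultures (limma adjusted p of 0.00297 and 0.00359). The other muscle markers had an unadjusted p above 0.05, and the median change of all 7 was 0.16 in F/- cultures and 0.077 in F/+ cultures. The part of muscle cells in the isoform values was not tested.

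Medians of the complexes, with cytochrome c counted in complex III, were below 0 with passage in each culture. By the brightest probe, none of their subunit genes passed the test in either genotype. A dimmer probe of Ndufa12 passed as lower in F/- cultures, at -1.43 (limma adjusted p = 0.0293). The brightest Ndufa12 probe changed by -0.41 there (limma adjusted p = 0.241). The F/+ cultures differed from each other. Median changes from passage 1 to passage 3 over 82 genes were -0.43 in pair 1 and -0.27 in pair 2 of F/- cultures, against -0.12 in pair 1 and -0.37 in pair 2 of F/+ cultures. For complex III with cytochrome c they were -0.59 and -0.75 in F/- cultures, against -0.0011 and -0.68 in F/+ cultures, and for complex IV -0.60 and -0.47 in F/- cultures, against -0.12 and -0.60 in F/+ cultures. With cytochrome c left out, the complex III median was 0.043 in pair 1 and -0.80 in pair 2 of F/+ cultures. The F/+ culture of pair 1 was thus nearest to its level at passage 1. Atp5k shows the pattern, with F/- levels of 11.78 and 10.84 at passage 3 against 13.66 and 13.46 at passage 1, and F/+ levels of 13.73 and 11.28 at passage 3 against 14.15 and 14.17 at passage 1. Cox6b1 had F/- levels of 10.07 and 9.14 at passage 3 against 11.68 and 11.40 at passage 1, and F/+ levels of 11.81 and 9.38 at passage 3 against 12.03 and 12.01 at passage 1. In both genes 3 of the 4 passage 3 cultures were low and the F/+ culture of pair 1 was not. Without the passage 3 array of pair 1, 14 of 82 genes were called lower with passage in F/- cultures and 20 of 82 in F/+ cultures (4.09% and 5.77% of all probes, 7.64% and 9.63% of the brightest decile), and without that of pair 2, 8 and 1 were (2.5% and 1.61% of all probes, 4.0% and 1.49% of the brightest decile), each resting on 1 culture at passage 3. Without either passage 1 array, 0 member genes were called in either genotype, and between 0.223% and 0.42% of all probes were called lower. In the F/+ culture of pair 1, as in each of the other cultures, the summed log2 levels of endothelial, melanocyte, leukocyte and adipocyte markers were lower at passage 3 than at passage 1. Those of fibroblast and skeletal muscle markers were higher in each culture. In the F/+ culture of pair 1 they were 10.60 against 10.32 and 11.25 against 9.88. Such sums follow the brightest markers. The median change of the 7 fibroblast markers was 0.47 in F/- and 0.039 in F/+ cultures. For the 7 skeletal muscle markers it was 0.16 and 0.077, and Acta1 was the 1 that passed. Of the 3 endothelial markers, 1 was called lower with passage in each genotype. Their median change was -0.34 in F/- cultures and -0.19 in F/+ cultures. Kdr, an endothelial receptor, had log2 levels of 7.22 and 7.42 at passage 3 against 9.97 and 9.65 at passage 1 in F/- cultures. In F/+ cultures Kdr stood at 7.15 and 7.44 at passage 3 against 10.25 and 10.06 at passage 1. The summed log2 level of 5 melanocyte markers was 14.62 and 14.62 in F/- cultures at passage 3 against 16.03 and 16.10 at passage 1, and 14.71 and 14.52 in F/+ cultures at passage 3 against 16.10 and 16.35 at passage 1. The part of these cells in the change with passage was not tested.

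**Figure D4:**
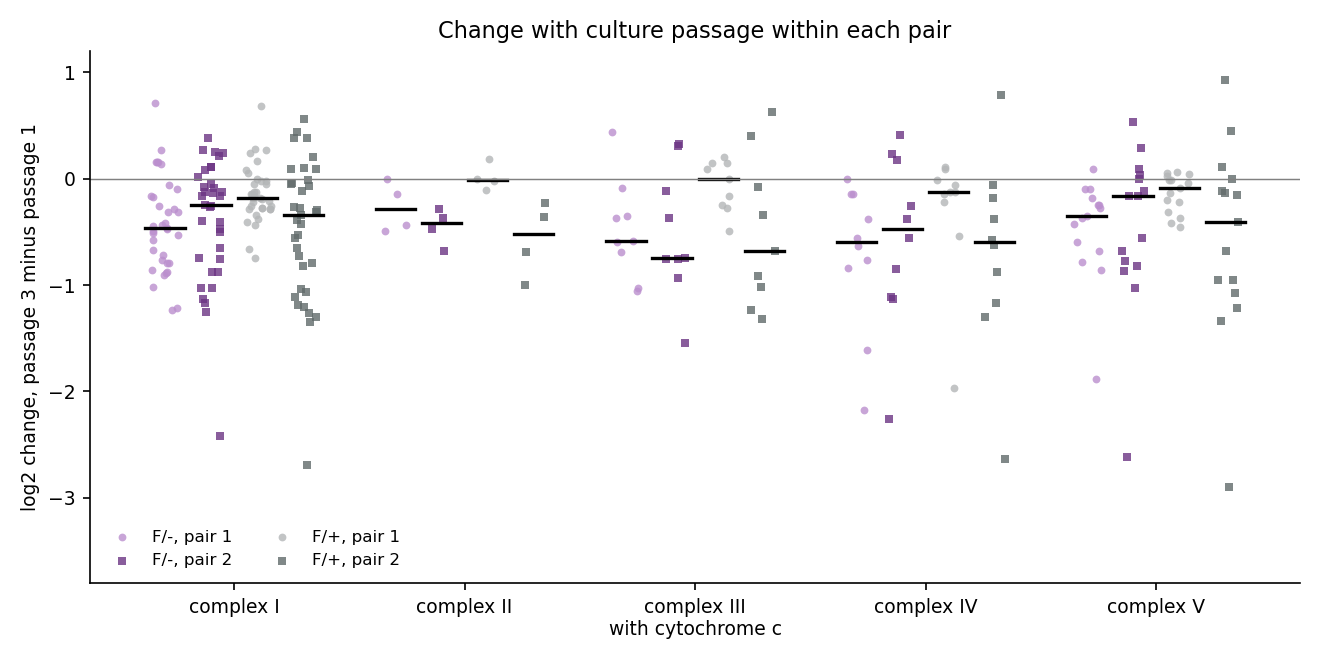
Log2 change of level from passage 1 to passage 3 (vertical axis) within each pair, with 1 point per gene, separate columns for the F/- and F/+ cultures of pairs 1 and 2, and the median as a black bar. In F/+ cultures of pair 1 the medians, with cytochrome c counted in complex III, lie between -0.18 and -0.0011, above those of the other cultures in each complex.

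The size of the genotype ratios depended on how each array was normalized. Most of these probes are bright, and the part of brightness in this was not tested. Without loess, with each array only centred on its median, the brightest decile of all probes had median ratios of -0.51 and -0.37 at passage 3 and -0.60 and -0.15 at passage 1. With loess these were -0.055 and 0.012 at passage 3 and 0.022 and 0.021 at passage 1. Under median centring the median mean ratio of the 83 genes was -0.78, against -0.30 under loess, and 57 genes were called lower and 0 higher, with Sdha at 0.17. In that fit 8.57% of all probes and 36.6% of the brightest decile were called lower, and 2.58% and 1.04% higher. Under the scanner's own ratios, 3 genes were called lower, which is fewer than under loess, and 0 higher, against 1.79% and 3.65% of all probes. The median of the members was below 0 under all 3, and the sizes given here are relative to other probes of like brightness.

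**Figure D5:**
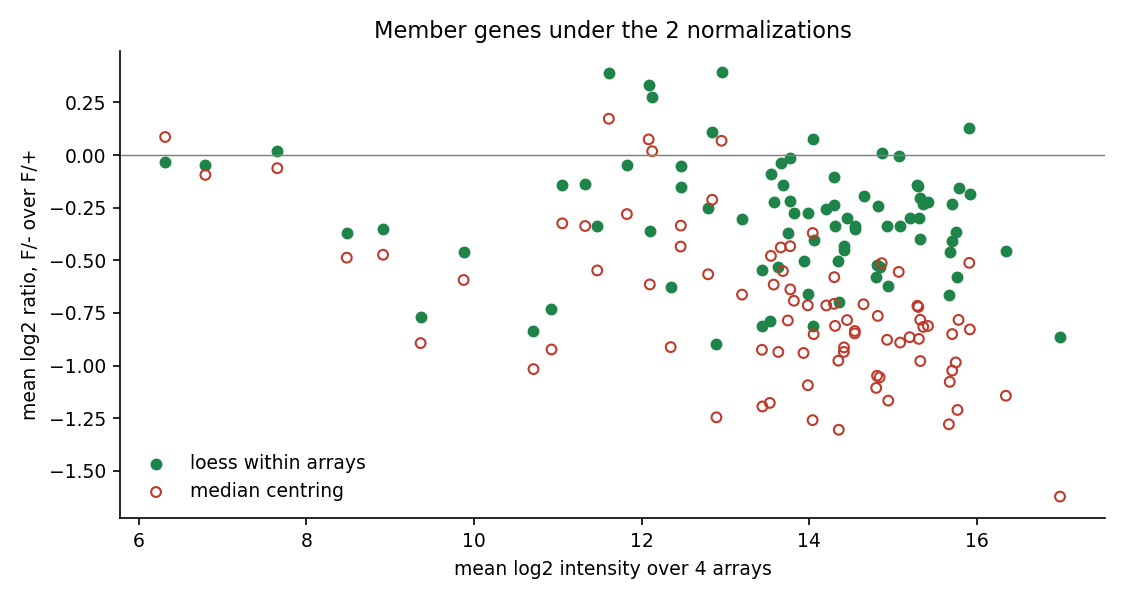
Mean log2 ratio of F/- over F/+ over 4 arrays (vertical axis) against mean log2 intensity over 4 arrays (horizontal axis) for each of the 83 genes under loess and under median centring. Medians are -0.30 under loess and -0.78 under median centring, and the gap lies mainly among the bright genes.

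Other nuclear genes of mitochondria were read from lists. Of 75 mitochondrial ribosome genes, 6 were lower and 2 higher in F/- cultures by limma (2.99% and 5.85% of all probes), with a median mean ratio of -0.18. Their array medians were -0.41 and -0.085 at passage 3 and -0.14 and -0.13 at passage 1, lowest on the same array as the respiratory chain genes. The lower ones included Mrpl16 at -0.62 ± 0.24 and Mrps33 at -0.46 ± 0.20, and the higher ones were Mrpl12 at 0.37 ± 0.11 and Mrps5 at 0.35 ± 0.19 (SD, n = 4). Of 15 genes of the tricarboxylic acid cycle and its entry, 0 passed with limma, 5 were lower and 2 higher at an unadjusted p under 0.05 (13% and 16.4% of all probes), and the median was -0.0025. Among 16 regulators of mitochondrial biogenesis, 1 was lower and 1 higher by limma (2.99% and 5.85% of all probes), and the median was 0.039. The lower was Tfb1m, a methyltransferase of mitochondrial ribosomal RNA, at -0.49 ± 0.19, and the higher was Polg, the mitochondrial DNA polymerase, at 0.42 ± 0.15. Nrf1, whose motif was searched above, read 0.32 and 0.035 at passage 3 and 0.42 and 0.40 at passage 1 and did not pass (limma adjusted p = 0.0669). In protein import, 1 of 16 genes was lower and 1 higher by limma (2.99% and 5.85% of all probes), with a median of -0.12. These were Tomm7, lower at -0.73 ± 0.46, and Tomm40, higher at 0.62 ± 0.34. Of 11 carriers, channels and uncoupling genes, 1 was lower and 0 higher by limma (2.99% and 5.85% of all probes), and the median was -0.17. The lower was Vdac2, a channel of the outer membrane, at -0.35 ± 0.079. Of 9 genes of cytochrome oxidase assembly, 0 passed with limma, 0 were lower and 2 higher at an unadjusted p under 0.05 (13% and 16.4% of all probes).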

How the data were processed

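RNA of F/- (Cy3) and F/+ (Cy5) keratinocytes was measured on 4 arrays, 2 at each passage. Images were read by Feature Extraction (Agilent, version 9.1.3.1), as the submitters' processing notes state. Per the file headers, the deposited scanner files hold raw intensity and local background intensity in both channels, processed intensity after the scanner's dye normalization, and a log10 ratio of Cy5 over Cy3. Spot flags (outlier, well above background, saturated) were those of the deposited files. The authors' value table holds log10 ratios equal to that column with the sign turned (largest gap 4.96e-06), so it was not used further. For the Cy5 RNA of the later arrays 1 label, the source name, gives the 1st passage; titles, descriptions and the passage entry give passage 3, which was used.

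With limma 3.58.1 under R 4.3.3, normexp (offset 50) corrected the background and loess normalized each array, with outlier and control spots at weight 0. Log2 ratios, Cy3 over Cy5 and so F/- over F/+, were computed from the deposited intensities. Spots of a probe were averaged, and 35574 probes were kept, which needed a value on 3 or more arrays and a signal well above background in either channel on 2 or more. Members were named through the accession for 103 probes, the symbol for 12 and otherwise for 2. Genotype was tested with limma on all 4 arrays with passage as group (2 residual and 2.81 prior degrees of freedom), and passage within genotype with the separate-channel fit after loess and Aquantile (channel correlation 0.741, 35475 complete probes). Tests were two-sided, with p-values adjusted over all probes and called at 0.05. The pair number marks the same animals at both passages, per the design text and titles, so it pairs the arrays; after removal of the passage means, same-numbered arrays correlated at -0.000464. The number of arrays limits the precision. The fitting steps were tested on simulated data.

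Genes were named where adjusted p was under 0.05 (at most the 5 of largest size per direction and comparison) or where they were among the 3 of largest size per direction, complex and comparison with one sign on all its arrays; all of complex II, Cyc1, Cycs, restricted isoforms and genes with probes more than 0.5 apart were named too. Further genes called in the mean, Cox6c, Cox7a2l, Cox4nb, Atp5a1, Uqcrc1, the marker genes and Nrf1 were named after their values were seen. Of the genes called higher in the mean, 1 is not reported here. Members and lists were chosen with earlier results of these data known. Summed marker levels are log2 of the sum of channel intensities. Alternatives were median centring, the scanner's ratios, a background offset of 0, no background subtraction, other filters, no Aquantile, leaving out each array, pairs averaged first and the pair as a block.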

Additional observations from a re-analysis of the deposited data

Results flagged for a closer look

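Ndufaf1, an assembly factor of complex I, was the member with both ratios above 0 at 1 passage and both below 0 at the other. Its ratios were 0.041 and 0.0055 on the passage 3 arrays of pairs 1 and 2, against -0.22 and -0.021 on the passage 1 arrays. Passage means of other members, with mixed signs within a passage, also lay on opposite sides of 0, such as Cyc1 at -0.40 at passage 3 and 0.19 at passage 1. For Ndufaf1, the ratios of pair 2 lay near 0. Its difference of passage 3 minus passage 1 was 0.14 and did not pass limma's test (adjusted p = 0.93, unadjusted p = 0.289).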

How the results depend on the processing

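The median over all members kept its sign in each genotype and passage comparison under the alternatives run, except in the difference between passages, where it was 0.076 without the passage 3 array of pair 1. Median centring in place of loess gave medians of -0.73 at passage 1, -0.80 at passage 3 and -0.78 in the mean, and in the mean -0.79 for complex I, -0.069 for complex II, -0.72 for complex III with cytochrome c, -0.92 for complex IV and -0.94 for complex V, with 57 genes called lower and 0 higher. The scanner's ratios gave a median of -0.20 at passage 1 and -0.27 for complex V in the mean, with 3 genes called lower and 0 higher in the mean and 0 higher with passage in F/+ cultures. At passage 1, leaving out 1 array gave medians between -0.24 and -0.22.

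In the mean, leaving out 1 array gave between 0 and 39 genes called lower and between 0 and 2 higher: 39 without the passage 3 array of pair 2, and 0 lower without each of the others. Pairs averaged first gave 0 lower and 0 higher. An offset of 0, no background subtraction and no filter each gave 1 higher (7.21%, 5.74% and 4.94% of all probes). Of the 17 genes called in the mean, 17 stayed under the strict filter (a gene well above background in both channels on all arrays), 12 with an offset of 0 and 3 with the scanner's ratios. With passage, leaving out 1 array gave between 0 and 14 lower in F/- cultures and, in F/+ cultures, between 0 and 20 lower, between 0 and 1 higher and medians between -0.42 and -0.061. The 14 and the 20 came without the passage 3 array of pair 1, and 8 were lower in F/- cultures without that of pair 2. An offset of 0 gave 2 lower in F/- cultures (2.69% of all probes). Without Aquantile 0 genes passed in F/- and in F/+ cultures (7 and 3 lower at an unadjusted p under 0.05). The cause of these changes was not tested.

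With the pair as a replicate block, 2 of 82 genes were called lower with passage in F/- cultures (1.81% of all probes). In the mean 16 of 83 were lower and 2 higher (3.18% and 5.89% of all probes), and 14 of these were among the 17. The block could not estimate its own channel correlation, and 0.741 was kept. It changed no other count of calls. Fits on 3 arrays used the same correlation and assume that a lone array varies like the others. Ratios of Cox8b and other dim members are limited by signal over background.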
